A study of Mus musculus with 107 samples.

Results

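The chr7 deletion clones and the chr3 deletion clones are mouse embryonic stem (ES) cell lines of B6NJ origin, each lacking a different element. The comparison took the 6 RNA libraries titled chr7_D4 and chr7_F4 against the 6 libraries titled chr3_C2 and chr3_H7, 3 libraries for each of the 4 clones. These are 12 of the 26 RNA libraries among the 107 samples of the series. The series mapped contacts between regions bound by Polycomb repressive complex 2 (PRC2) in ES cells and then deleted distal regulatory elements in B6NJ cells. In both chr7 clones the targeted interval was chromosome 7, 143440438 to 143450716 (mm10, 10279 bp), per the labels. For the chr3 clones the sources used here give the chromosome in the title and no interval, and for neither deletion do they give the number of alleles removed. All 4 clones were grown on irradiated mouse embryonic fibroblast feeder cells in serum medium with PD0325901, an inhibitor of the kinase MEK, and CHIR99021, an inhibitor of the kinase GSK3. No undeleted line entered the comparison, so a gene that was higher in chr7 clones was equally one that was lower in chr3 clones, and which deletion line had moved is not given by these 12 libraries. The chr7 labels describe extraction with Trizol and an RNeasy column and the chr3 labels name no extraction step, so a difference in preparation cannot be told apart from the deletions. Nothing in the labels says that replicates were grown as separate cultures. The p-values therefore cover the spread between the libraries at hand, which may be technical.

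PRC2 places the methyl mark H3K27me3 on histone H3 and keeps developmental genes such as the Hox genes low in ES cells. The deleted chr7 interval lies in the Kcnq1 imprinted domain, where genes are expressed from 1 parental allele. In this domain the long noncoding RNA Kcnq1ot1, made from the paternal allele, silences neighbours such as Cdkn1c in cis, so that these are expressed from the maternal allele. ES cells kept in inhibitors of MEK and GSK3 hold the naive pluripotent state, marked by genes such as Nanog, Klf5 and Esrrb. Feeder fibroblasts make matrix proteins such as type I collagen, and their RNA can enter a library when they are not fully removed.

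Total gene counts were 41.3 to 53.3 M in the chr7 libraries and 49.3 to 60.2 M in the chr3 libraries. All 12 libraries had the ES cell transcription factors at high levels. Pou5f1, which encodes OCT4, had 950 to 1100 CPM (counts scaled to the size of each library) in chr7 libraries and 1120 to 1260 CPM in chr3 libraries. Nanog had 456 to 536 CPM in chr7 libraries and 443 to 481 CPM in chr3 libraries. The summed level of 9 markers that define ES cells was 6560 to 6860 CPM in chr7 libraries and 6870 to 7830 CPM in chr3 libraries (means 6740 ± 114 and 7310 ± 343, SD, n = 6 libraries each). The groups did not overlap (exact permutation test over libraries, two-sided p = 0.00216, the smallest that 6 against 6 allows, while over 2 clones against 2 the smallest is 0.333). Dppa5a was the largest part of this sum, with 3460 to 3760 CPM in chr7 libraries and 3530 to 4270 CPM in chr3 libraries, ranges that overlapped. No counted gene lies inside the chr7 interval, so the counts give no check of the deletion itself. The deposited lists of significant contacts of Ezh2, the catalytic subunit of PRC2, give one for the chr7 clones. In both chr7 clones, 2 libraries each, 0 contacts had an end over the strongest PRC2 peak of the interval, among 6987 to 9354 contacts per library. In the undeleted B6NJ line 5 contacts of 4734 and 9 of 8794 had one, and in the 4 libraries of chr9 deletion clones 3 to 8 had one. The same check was not made for the chr3 clones.

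The libraries separated by deletion first and by clone much less. The first principal component of log2 CPM, with 20.8% of the variance, placed chr7 libraries at 9.3 to 30 and chr3 libraries at -22.6 to -17.1. On the second component, chr7_D4 replicate 3 (26.7), chr7_F4 replicate 1 (-27.4) and chr3_C2 replicate 2 (-24.3) lay apart from the other libraries of their clones. Of 17764 genes tested, 4382 (24.7%) were called at an adjusted p under 0.05 between the mean of the chr7 clones and the mean of the chr3 clones, 2085 (11.7%) higher in chr7 clones and 2297 (12.9%) lower. Most of these differences were small: 569 called genes differed by at least 1.5-fold and 204 by at least 2-fold. This test has the spread between libraries of a clone as its error, not the spread between clones, and 2 further readings were therefore set beside it. Called in the same direction in each of the 4 pairs of a chr7 clone and a chr3 clone were 592 genes (3.33%), 196 higher (1.1%) and 396 lower (2.23%). The pairs share clones and are not independent. With counts summed per clone, so that the spread between 2 clones of a deletion is the error, 960 of 19619 genes (4.89%) were called, 414 higher and 546 lower. Of the 592 genes, 533 were also called on clone sums. The 6 chr7 libraries were all above the 6 chr3 libraries for 646 genes (3.64%) and all below them for 933 (5.25%).

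Clones with the same deletion differed in fewer genes. Between chr7_F4 and chr7_D4 179 genes were called (1.01%), and between chr3_H7 and chr3_C2 176 (0.991%). Clone chr7_D4 stood further from the chr3 clones than chr7_F4 did, with 3347 genes called against chr3_C2 and 3226 against chr3_H7, while chr7_F4 had 1738 and 1574. These counts depend on single libraries. The count in all 4 pairs became 321 without chr7_F4 replicate 1, 376 without chr7_F4 replicate 3 and 373 without chr3_C2 replicate 1. The count between the chr7 clones became 47, 68 and 650 without chr7_D4 replicates 1, 2 and 3, 71, 51 and 96 without chr7_F4 replicates 1, 2 and 3, and 108 without chr3_C2 replicate 2. The count between the chr3 clones became 73, 64 and 93 without chr3_C2 replicates 1, 2 and 3, and 91, 98 and 62 without chr3_H7 replicates 1, 2 and 3.

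**Figure D1:**
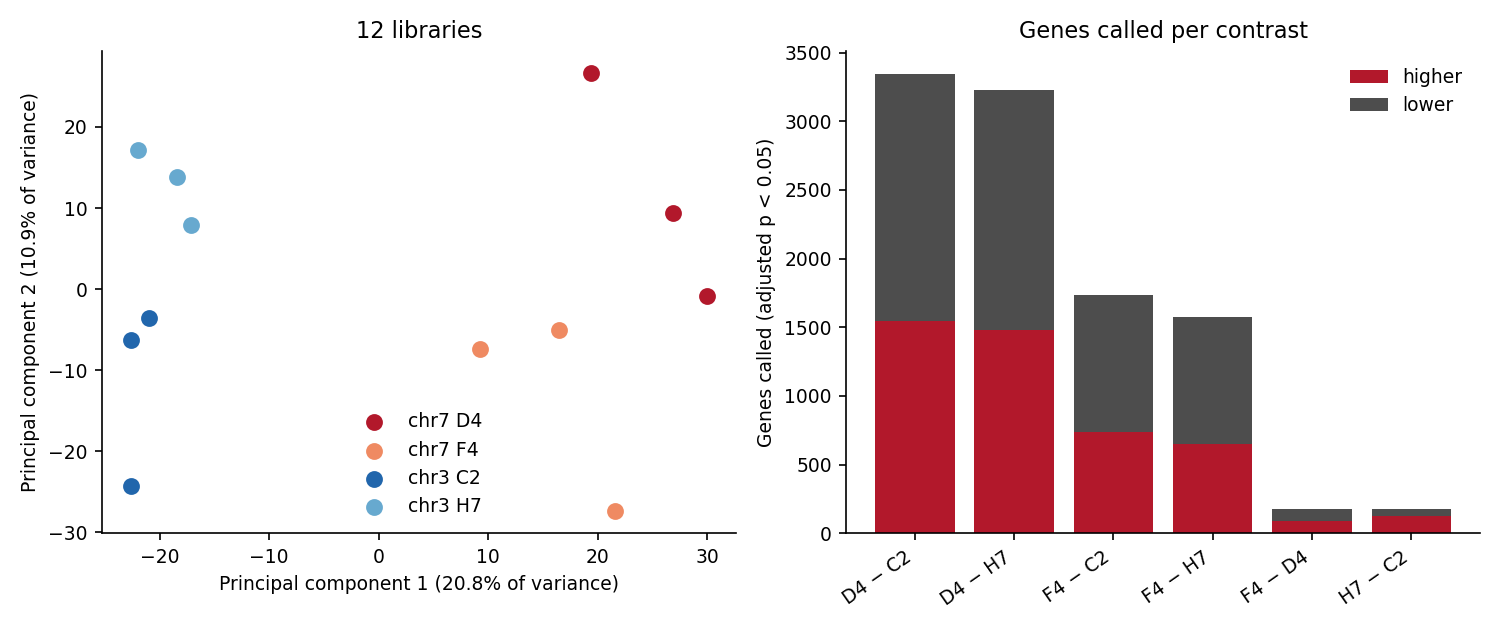
Left, the 12 libraries on the first and second principal components of log2 CPM (20.8% and 10.9% of the variance), marked by clone. Right, genes called per contrast at an adjusted p under 0.05, stacked as higher and lower in the first-named clone. The chr7 and chr3 libraries lie on opposite sides of the first component, and the contrasts within a deletion have 179 and 176 genes against 1574 to 3347 between deletions.

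Around the deleted interval the clearest difference was in Cdkn1c, which encodes the cell cycle inhibitor p57 and lies 7.62 kb from the interval (chromosome 7, 143458339 to 143461059, GRCm38). Cdkn1c had 12.1, 9.98 and 9.82 CPM in chr7_D4 and 13.5, 13.8 and 11.3 CPM in chr7_F4, against 6.74, 7.07 and 7.36 CPM in chr3_C2 and 8.44, 7.27 and 7.45 CPM in chr3_H7. Each chr7 library was above each chr3 library. The log2 change was 0.66 ± 0.075 (SE, adjusted p = 1.37e-06), the gene was called in all 4 clone pairs, and on clone sums its adjusted p was 0.00446. In the authors' pooled PRC2 contact map of E14 ES cells, 901 of the 983 paired-end tags (PETs) of the interval's 16 interactions had an end at Cdkn1c. The interval held 3 PRC2 peaks there, the strongest 13.9-fold over background in the authors' peak list, and 2 H3K27me3 peaks.

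Of 50 annotated genes within 1 Mb of the interval, 32 passed the count filter, and 6 of these were called higher in chr7 clones (against 11.7% of all genes tested), with a median log2 change of 0.12 over the 32. The 6 include H19 and Mir675, whose reads cannot be separated, so that signal is counted more than once. On clone sums only Cdkn1c and Kcnq1ot1 were called. Cdkn1c alone was called in all 4 pairs. Kcnq1ot1, the silencing RNA of the domain, had 4.45 to 7.54 CPM (median 5.42) in chr7 libraries and 2.94 to 4.71 CPM (median 3.81) in chr3 libraries. Its ranges overlapped, with a log2 change of 0.55 ± 0.12 (adjusted p = 0.00152, and 0.0382 on clone sums). Kcnq1ot1 is antisense to Kcnq1, and no source used here says if reads were counted by strand, so reads of the pair may be mixed. Kcnq1, a potassium channel gene at 0.61 to 0.923 CPM in chr7 libraries and 0.799 to 1.3 CPM in chr3 libraries, was not called (-0.29 ± 0.2).

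The genes further out that were called did not hold at the level of clones. H19, a maternally expressed noncoding RNA 862 kb away, averaged 177 ± 18 CPM in chr7_D4 and 85.9 ± 4.1 CPM in chr7_F4, against 55.4 ± 6.8 CPM in chr3_C2 and 108 ± 13 CPM in chr3_H7 (SD, n = 3 each). It was high in chr7_D4 and low in chr3_C2, and chr7_F4 lay below chr3_H7, so that its log2 change of 0.67 ± 0.061 (adjusted p = 5.89e-08) was not called on clone sums (adjusted p = 0.178). Mir675, a microRNA gene inside H19 whose reads cannot be separated from it, had a change of 0.69 ± 0.09. Igf2, the paternally expressed growth factor gene beside H19, had 15.4 to 24.5 CPM in chr7 libraries and 15.7 to 22.3 CPM in chr3 libraries and was not called (adjusted p = 0.114).

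Osbpl5, which encodes a lipid transfer protein, had 1.69 to 3.09 CPM in chr7 libraries and 1.36 to 2.04 CPM in chr3 libraries, a change of 0.45 ± 0.15 (adjusted p = 0.0311, and 0.185 on clone sums). Osbpl5 was not called without any 1 of 7 libraries, namely chr7_D4 replicates 2 and 3, chr7_F4 replicate 3, chr3_C2 replicates 2 and 3 and chr3_H7 replicates 2 and 3 (adjusted p = 0.052 to 0.118). Phlda2, an imprinted growth regulator of the placenta with 25 PETs to the interval, had 27 to 37.3 CPM in chr7 libraries and 27.5 to 33.7 CPM in chr3 libraries and was not called (0.11 ± 0.049). Phlda2 (adjusted p = 0.0316) and Igf2 (adjusted p = 0.0344) were called without chr7_D4 replicate 3. Slc22a18, Nap1l4 and Cars, which lie within 107 kb on the Cdkn1c side, had log2 changes of 0.07, 0 and -0.06, and none of them was called. The deposited counts do not separate the parental alleles.

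**Figure D2:**
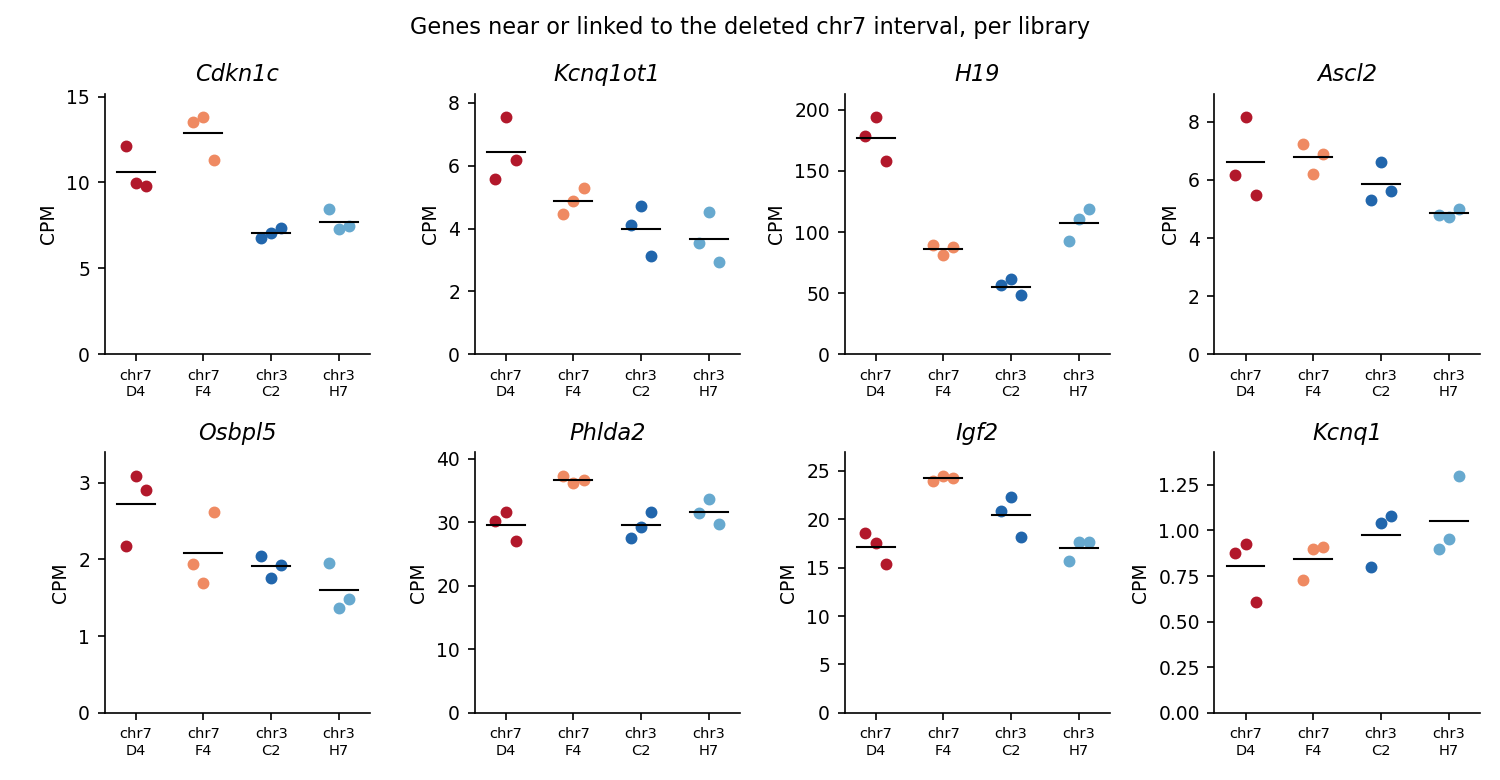
CPM per library (y axis, from 0) for 8 genes near or linked to the chr7 interval, by clone (x axis, 3 points each, line at the clone mean). Cdkn1c is higher in every chr7 library (9.82 to 13.8) than in any chr3 library (6.74 to 8.44), whereas H19 differs between clones of the same deletion.

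Ascl2, which encodes a transcription factor needed in the trophoblast, lies 471 kb from the interval with 9 PETs to it, and had 5.49 to 8.16 CPM (median 6.56) in chr7 libraries and 4.74 to 6.63 CPM (median 5.15) in chr3 libraries. The ranges overlapped, the log2 change was 0.33 ± 0.096 (adjusted p = 0.014), and on clone sums it was not called (adjusted p = 0.129), nor without chr7_D4 replicate 2 (adjusted p = 0.0535). Its promoter is shown because E14 PRC2 (6.95-fold) and H3K27me3 (3.53-fold) peaks lie within 1000 bp of it and because it is at the far end of a contact of the deleted interval. The 250 bases before its start (RefSeq, GRCm38.p6, chr7:142969265-142969514, minus strand, 5′ to 3′) hold 19 CG dinucleotides, in capitals.
Ascl2: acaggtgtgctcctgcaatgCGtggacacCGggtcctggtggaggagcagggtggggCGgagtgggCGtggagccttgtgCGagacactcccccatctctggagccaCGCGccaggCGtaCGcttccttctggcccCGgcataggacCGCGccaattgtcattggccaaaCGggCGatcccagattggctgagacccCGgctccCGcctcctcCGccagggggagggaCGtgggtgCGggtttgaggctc

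Of the genes with Polycomb marks in E14 cells, a larger share was called higher in chr7 clones than of genes without. Of 2402 genes with both a PRC2 and an H3K27me3 peak over the gene or within 1000 bp of it, 17.8% were called higher and 10% lower, with a median log2 change of 0.085. Of 4359 genes with a PRC2 peak only, 13.6% were higher and 14.2% lower (median 0.012). Of 9445 genes with neither, 9.88% were higher and 14% lower (median -0.01). The shift was in the same direction in each of the 4 clone pairs, with medians of 0.065 to 0.101 for genes with both peaks, but the pairs share clones. Genes with both peaks had low levels, a median of 2.64 CPM, against 19.6 CPM for genes with neither. Among genes with a mean of at least 5 CPM the shares were 22.5% higher and 19.7% lower for genes with both peaks, with a median of 0.018, and 11.9% and 19.2% for genes with neither. The shares called lower were thus close at these levels, and the shares called higher were further apart. Leaving out the feeder list kept 2392 of the 2402 genes with both peaks and gave 17.7% higher. With so few genes removed the share could hardly move, and the part of feeder RNA in this shift was not tested. These are descriptions over genes, which are not replicates, and they rest on the 91.4% of tested genes with a RefSeq position.

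The Hox genes, transcription factors that set position along the body axis and textbook PRC2 targets, went the same way. Only 16 of 39 passed the count filter, all at low levels, and 6 of these were called higher (against 11.7% of all genes tested), with a median log2 change of 0.82 (all genes tested, 0.006). A low gene passes this filter through the clone where it is high, so the median over those that passed is a description of them alone. Hoxb13 had 2.5 to 4.09 CPM (median 3.32) in chr7 libraries and 1.19 to 2.25 CPM (median 1.45) in chr3 libraries, without overlap, a change of 1.07 ± 0.16 (adjusted p = 4.81e-05). Hoxd8 had 0.725 to 1.26 CPM in chr7 libraries and 0.293 to 0.726 CPM in chr3 libraries, and the ranges just met (1.19 ± 0.24, adjusted p = 0.00104). Hoxb13 and Hoxd8 were called in all 4 clone pairs. Hoxb4, Hoxb9 and Hoxc4 were called on the clone means only.

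Not all genes with Polycomb marks were higher. Nrp2, which encodes the axon guidance and growth factor receptor neuropilin-2, had 10.6 to 13.2 CPM (median 12) in chr7 libraries and 18.4 to 24.9 CPM (median 20) in chr3 libraries, a change of -0.83 ± 0.064 (adjusted p = 6.21e-09). Khdc3, which encodes a KH domain protein of oocytes and early embryos, had 7.96 to 11.2 CPM (median 9.37) in chr7 libraries and 15.2 to 16.8 CPM (median 16) in chr3 libraries (-0.76 ± 0.057, adjusted p = 4.15e-09). Both fell in all 4 clone pairs with no overlap between libraries. Lef1, a transcription factor of Wnt signalling, Otx2, a factor of the formative state that follows naive pluripotency, and Hlf, a bZIP factor, also fell and had both marks. Hlf had 0.236 to 0.688 CPM in chr7 libraries and 1.08 to 2.45 CPM in chr3 libraries (-2.15 ± 0.21, adjusted p = 1.56e-07).

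Promoters of 4 genes called in all 4 pairs are shown to set their base composition beside their marks and their direction. Hoxd8 and Nrp2 have strong E14 PRC2 peaks (24.5-fold and 14.9-fold) and moved in opposite directions, Khdc3 has a weak one (2.71-fold), and Stra8, the meiosis gene described below, has neither mark. Each line gives the 250 bases before the start in the RefSeq promoter table, 5′ to 3′ on the gene's strand, with CG in capitals (RefSeq, GRCm38.p6): Hoxd8 at chr2:74704365-74704614, Nrp2 at chr1:62703067-62703316, Khdc3 at chr9:73102148-73102397 and Stra8 at chr6:34920698-34920947, all on the plus strand. The gene spans of Stra8 and Khdc3 begin upstream of these windows (at 34920163 and 73101381), so both windows lie inside the spans.
Hoxd8: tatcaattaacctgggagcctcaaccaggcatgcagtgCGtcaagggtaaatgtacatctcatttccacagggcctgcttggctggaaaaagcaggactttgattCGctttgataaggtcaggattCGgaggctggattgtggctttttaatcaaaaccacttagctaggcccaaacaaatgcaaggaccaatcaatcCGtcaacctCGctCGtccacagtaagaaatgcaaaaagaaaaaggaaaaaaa
Nrp2: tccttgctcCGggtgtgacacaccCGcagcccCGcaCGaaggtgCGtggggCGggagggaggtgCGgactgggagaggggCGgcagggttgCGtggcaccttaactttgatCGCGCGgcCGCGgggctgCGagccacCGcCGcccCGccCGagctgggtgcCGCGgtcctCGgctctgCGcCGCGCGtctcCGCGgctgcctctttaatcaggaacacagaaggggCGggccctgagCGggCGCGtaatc
Khdc3: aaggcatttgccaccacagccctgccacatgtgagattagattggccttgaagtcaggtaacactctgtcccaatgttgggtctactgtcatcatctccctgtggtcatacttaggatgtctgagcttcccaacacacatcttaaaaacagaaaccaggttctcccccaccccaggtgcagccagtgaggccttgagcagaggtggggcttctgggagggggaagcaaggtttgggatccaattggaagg
Stra8: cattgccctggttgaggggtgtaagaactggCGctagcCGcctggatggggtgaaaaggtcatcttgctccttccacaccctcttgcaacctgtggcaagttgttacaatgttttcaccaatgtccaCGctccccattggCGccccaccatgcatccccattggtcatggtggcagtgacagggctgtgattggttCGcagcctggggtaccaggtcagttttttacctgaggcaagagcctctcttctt
Nrp2 held 32 CG, Hoxd8 6, Stra8 5 and Khdc3 0. Over tested genes the median was 19 CG for promoters with both marks within 1000 bp (1416 genes), 16 with PRC2 only (1957 genes) and 14 with neither (8439 genes).

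Among genes with a mean of at least 5 CPM that were called in all 4 pairs, fibroblast and contractile genes led the rises. Thbs1, which encodes the matrix protein thrombospondin-1, had 10.6 to 16.6 CPM (median 13.1) in chr7 libraries and 2.84 to 4.85 CPM (median 3.53) in chr3 libraries, a log2 change of 1.84 ± 0.11 (adjusted p = 8.08e-11). Col1a1, a chain of type I collagen, had 8.1 to 14 CPM (median 11.3) in chr7 libraries and 2.15 to 3.92 CPM (median 3.2) in chr3 libraries (1.82 ± 0.13). Tagln, a smooth muscle actin-binding protein, had 8.49 to 12.3 CPM in chr7 libraries and 2.64 to 5.94 CPM in chr3 libraries (1.41 ± 0.11). None of these genes overlapped between the groups. Ccn2 (0.93 ± 0.062), a matricellular growth factor, rose as well.

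The other large rises were genes of other kinds. Stra8, which is switched on by retinoic acid and starts meiosis, had 42.3, 42.3 and 38.5 CPM in chr7_D4 and 55.1, 45.6 and 44.1 CPM in chr7_F4, against 18.5 to 19.8 CPM in chr3_C2 and 23.2 to 24.9 CPM in chr3_H7. Both chr7 clones lay well above both chr3 clones, with a change of 1.06 ± 0.053 (adjusted p = 6.26e-12, and 0.000163 on clone sums). Aurkc, the Aurora kinase of meiosis, had 19.2 to 22.1 CPM (median 20) in chr7 libraries and 10.4 to 12 CPM (median 11) in chr3 libraries (0.87 ± 0.058). The sister clones lay close to each other for Aurkc, at 20.2 and 20.5 CPM in the chr7 clones and 11.2 and 11.1 CPM in the chr3 clones. Zrsr1, an imprinted splicing factor gene (0.81), Ovgp1, an oviduct glycoprotein gene (0.77), Prss42, a serine protease gene (0.77), Cidea, a lipid droplet protein gene (0.73), and Ppp1r3c, a glycogen regulator gene (0.67), were also among the 12 largest rises.

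The largest falls were in secreted factors, transcription factors and metabolic genes. Ntn1, which encodes the guidance cue netrin-1, had 29.4, 25.5 and 28.2 CPM in chr7_D4 and 30.1, 30.9 and 29.5 CPM in chr7_F4, against 75.8, 68.7 and 67.4 CPM in chr3_C2 and 68.2, 62 and 65.2 CPM in chr3_H7. The chr7 level was under that of every chr3 library by a wide margin (-1.23 ± 0.045, adjusted p = 1.32e-14). Trh, the precursor of thyrotropin-releasing hormone, had 73.1 to 92.1 CPM (median 80.3) in chr7 libraries and 169 to 184 CPM (median 179) in chr3 libraries (-1.11 ± 0.05, adjusted p = 7.45e-13). Tdh, the threonine dehydrogenase on which mouse ES cells depend for one-carbon metabolism, had 88.2 to 149 CPM (median 119) in chr7 libraries and 223 to 249 CPM (median 230) in chr3 libraries (-0.95 ± 0.082, adjusted p = 2.75e-08). For Tdh the chr7 libraries spread widely and the chr3 libraries did not.

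Ddx58, which encodes the viral RNA sensor RIG-I, had 8.97 to 13.8 CPM in chr7 libraries and 21 to 23.9 CPM in chr3 libraries (-0.98 ± 0.079). Sall1, a zinc finger transcription factor, had 37.7 to 56.7 CPM in chr7 libraries and 76.6 to 89.2 CPM in chr3 libraries (-0.8 ± 0.076). Mitf, the transcription factor of pigment cells, had 8.87 to 11.5 CPM in chr7 libraries and 15.4 to 20.2 CPM in chr3 libraries (-0.8 ± 0.067). None of the 3 overlapped between groups. Zfp819, a zinc finger gene (-0.87), Pdzd4, a PDZ domain gene (-0.86), and Trim2, a ubiquitin ligase gene (-0.83), with Nrp2 and Khdc3, were also among the 12 largest falls. Among genes under 5 CPM, Pdyn, the precursor of dynorphin, had 0.107 to 0.446 CPM in chr7 libraries and 0.599 to 1.62 CPM in chr3 libraries (-2.12 ± 0.34, adjusted p = 8.95e-05). Gm47283, a predicted gene, had 0 counts in all 6 chr7 libraries against 111 to 247 counts in the chr3 libraries (mean 3.12 ± 0.9 CPM), at least 306-fold lower with a floor of 3 counts over the chr7 group. Its counts were 55 to 101 in the chr2 deletion clones, 122 to 312 in the chr9 deletion clones and 1383 to 1555 in the parental line, and the chr9 and parental libraries were deeper.

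**Figure D3:**
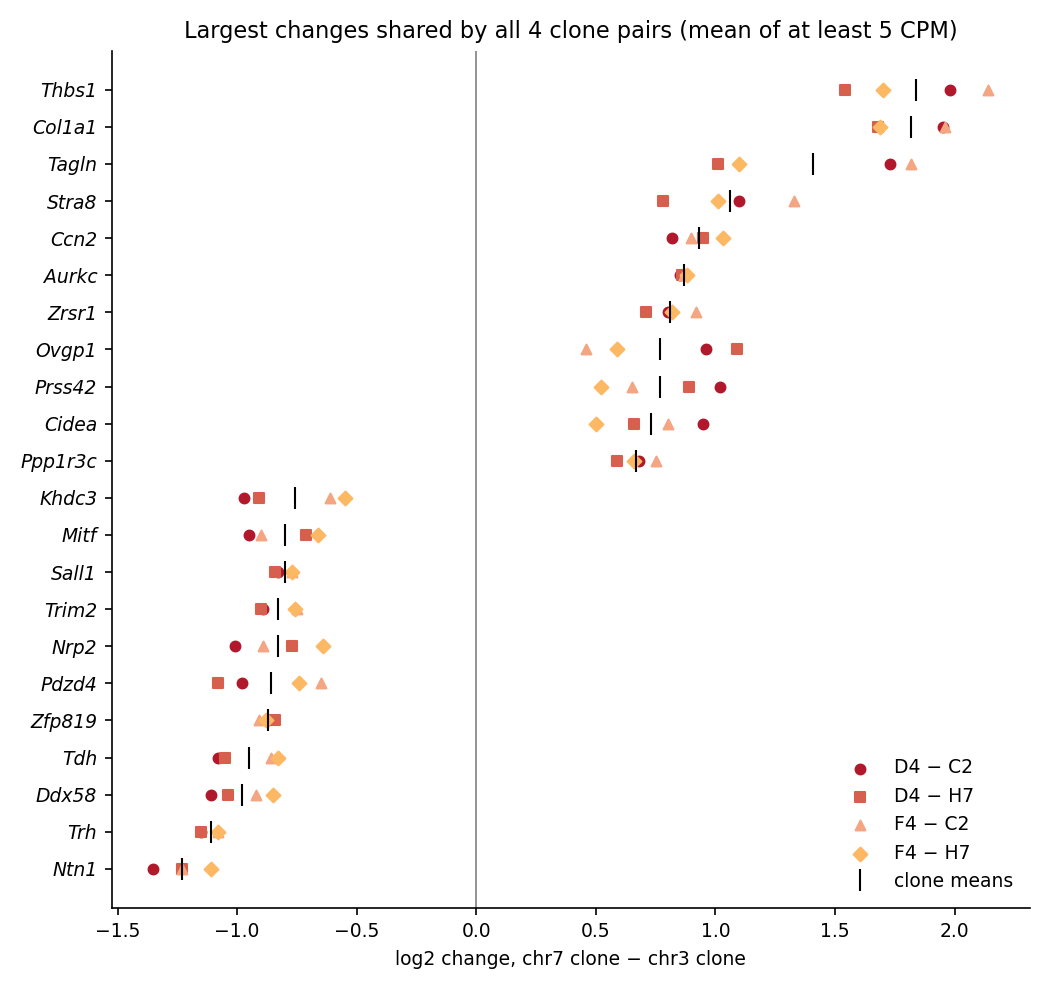
Log2 change (x axis) of genes from the 12 largest rises and 12 largest falls among those called in all 4 clone pairs with a mean of at least 5 CPM. Points are the 4 pairs of a chr7 clone minus a chr3 clone and the bar is the change of the clone means, from 1.84 for Thbs1 to -1.23 for Ntn1. All points of a gene lie on 1 side of 0, as the choice of genes requires.

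The feeder fibroblast list, matrix and contractile genes of fibroblasts, had 20 of its 30 tested members called higher in chr7 clones (against 11.7% of all genes tested) and 1 called lower, with a median log2 change of 0.87. Of these, 15 were called higher in all 4 pairs, against 1.1% of all genes tested. Col1a2 had 4.37 to 6.02 CPM (median 5.04) in chr7 libraries and 0.824 to 1.78 CPM (median 1.34) in chr3 libraries (2.06 ± 0.13). Acta2, smooth muscle actin, had 5.99 to 10.1 CPM (median 8.09) in chr7 libraries and 0.954 to 3.86 CPM (median 1.7) in chr3 libraries (2.16 ± 0.13). Postn (2.31), Lox (2.16) and Col3a1 (2.72), genes of matrix assembly and type III collagen, rose at lower levels. Col3a1 had 0.386 to 0.75 CPM in chr7 libraries and 0.0532 to 0.138 CPM in chr3 libraries. As for the Hox genes, a member this low passes the count filter through the clone where it is high. The counts and median of the list thus describe only the members that passed. Vim (-0.07), Thy1 (0.15), Timp3 (0.11), Col5a1 (0.19) and Loxl1 (0.25), further genes of fibroblasts, were not called. Fn1, which encodes fibronectin and which ES cells also express, fell (-0.25 ± 0.036), with 2060 to 2350 CPM in chr7 libraries and 2290 to 2980 CPM in chr3 libraries.

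The summed level of the 9 markers that define feeder fibroblasts was 32.7 to 41.5 CPM in chr7 libraries (mean 35.9 ± 3.31) and 17.2 to 20.4 CPM in chr3 libraries (mean 19.4 ± 1.23, SD, n = 6 each). The groups did not overlap, with a ratio of 1.85 (exact permutation test over libraries, two-sided p = 0.00216, the smallest possible). Over 2 clones against 2 the same test gave p = 0.333, the smallest that it allows. Lum and Dcn, fibroblast proteoglycan genes of this list, were at 0 in all but 1 and 2 of the 12 libraries. Over all 32 members the summed level was lower in chr7 libraries (2440 ± 120 CPM against 2790 ± 256 CPM, p = 0.0173 by the same exact test over libraries and 0.333 over clones), and Fn1 makes up most of it. The mean of log2(CPM + 1) over the list was higher by 0.56 (exact p = 0.00216). In bulk RNA, more feeder cells and more RNA of these genes per cell cannot be told apart. The part of this marker level in the other changes was not tested.

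**Figure D4:**
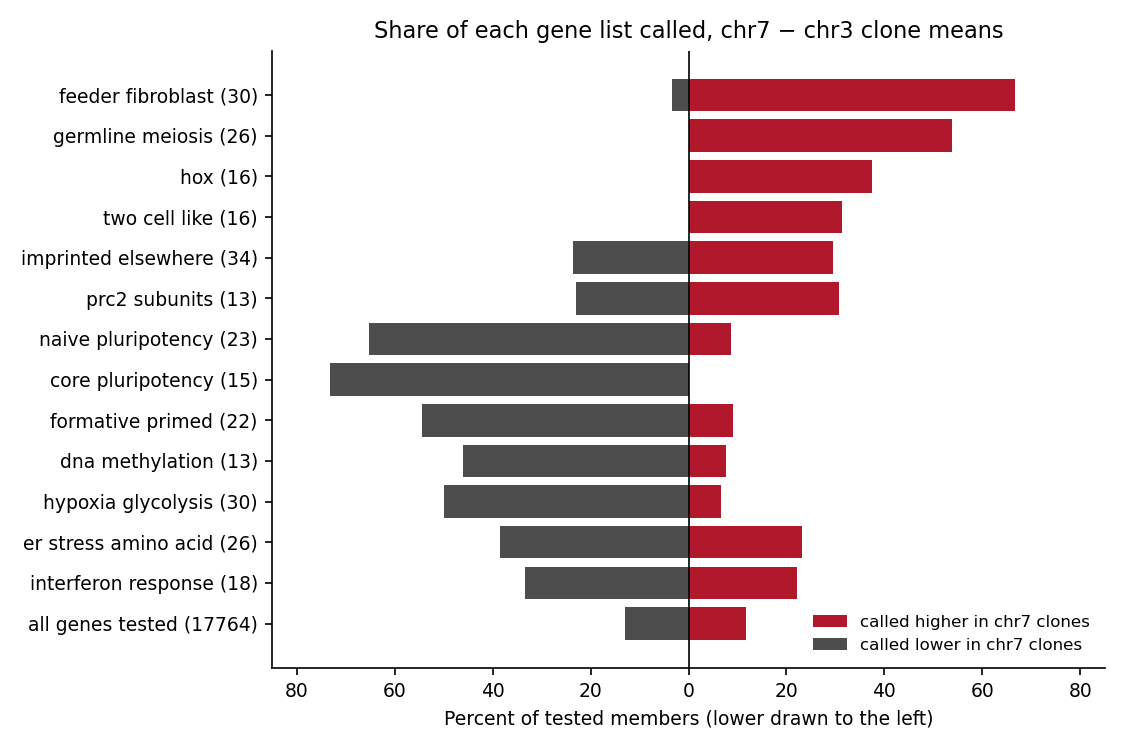
Percent of the tested members of each gene list (number in brackets) that were called higher (to the right) or lower (to the left) in chr7 clones relative to chr3 clones, with all 17764 genes tested for scale. The feeder list has 20 of 30 higher, the germline list 14 of 26 higher and the core pluripotency list 11 of 15 lower.

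Part of the germline and meiosis list was higher in chr7 clones. Of 26 genes tested, 14 were called higher (against 11.7% of all genes tested), 8 of them in all 4 pairs (against 1.1%), and the others were not called, with a median log2 change of 0.36. Taf7l, a germ cell form of a general transcription factor subunit, had 5.68 to 7.07 CPM (median 6.1) in chr7 libraries and 2.8 to 4.15 CPM (median 2.99) in chr3 libraries (0.96 ± 0.098, adjusted p = 3.28e-07). Sycp1, a protein of the synaptonemal complex that pairs meiotic chromosomes, had 9.32 to 13.4 CPM in chr7 libraries and 6.81 to 7.86 CPM in chr3 libraries (0.54 ± 0.071). Mov10l1, a helicase of the piRNA pathway, had 14 to 15.8 CPM in chr7 libraries and 9.16 to 11.5 CPM in chr3 libraries (0.52 ± 0.06). None of the 3 overlapped between groups. Sycp3 (0.46), Meioc (0.44), Piwil2 (0.28) and Sohlh2 (0.26) were also called in all 4 pairs, while Dazl (0.07), Ddx4 (0.08), Stag3 (0.08) and Rnf17 (0.02) were not called.

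Promoters of germline genes were searched for the hexamer TCCCGC on either strand in the 250 bases before the first listed start, a motif known from promoters that E2F6 and the variant PRC1 complex keep silent. It was present in 6 of 21 promoters of the list (28.6%), against 29.7% of the promoters of 11847 tested genes and 16.9% of all 27025 promoters. The 13 list genes called higher held it in 3 cases (23.1%) and the 8 not called in 3 (37.5%). Stra8, with a change of 1.06, did not hold the hexamer in this window.

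Genes of the transient state of ES cells that resembles the early cleavage embryo were low in all libraries. Of 16 tested members, 5 were called higher on the clone means (median log2 change 0.54), against 11.7% of all genes tested, and all the members called failed at least 1 of the 4 pairs. Zscan4c, of the family that marks that state, had 0.721 CPM on average and a log2 change of 1.15 (adjusted p = 0.00168). The Zscan4 and Usp17l copies share sequence, so their counts are uncertain. As for the Hox genes, a member this low passes the count filter through the clone where it is high, so the count and median describe only those that passed.

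Pluripotency genes were mostly a little lower in chr7 clones. Of 15 core and general pluripotency genes, 11 were called lower (against 12.9% of all genes tested) and the rest not called, with a median log2 change of -0.2. Pou5f1 had a median of 1000 CPM in chr7 libraries and 1190 CPM in chr3 libraries, without overlap (-0.25 ± 0.036, adjusted p = 3.77e-05). Lin28a, an RNA-binding protein of pluripotent cells, had 268 to 279 CPM in chr7 libraries and 327 to 342 CPM in chr3 libraries (-0.29 ± 0.028, adjusted p = 1.29e-07). Both were called in all 4 pairs, while Sox2 (286 to 341 CPM in chr7 libraries, 313 to 357 CPM in chr3 libraries) passed only narrowly (-0.14 ± 0.047, adjusted p = 0.0346, and 0.158 on clone sums). Sox2 was not called without any 1 of 8 libraries, namely chr7_D4 replicates 2 and 3, chr7_F4 replicates 1 and 3, chr3_C2 replicates 1 and 2 and chr3_H7 replicates 1 and 3 (adjusted p = 0.0551 to 0.107). Tdgf1 (-0.27), Dppa2 (-0.31), L1td1 (-0.29) and Trim28 (-0.2) were called on the clone means.

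Among 23 naive pluripotency genes, 15 were called lower and 2 higher (median -0.15), against 12.9% lower and 11.7% higher of all genes tested. Klf5, a transcription factor of the naive network, had 37.3 to 44.6 CPM (median 39.2) in chr7 libraries and 50.2 to 57.9 CPM (median 53.9) in chr3 libraries (-0.44 ± 0.045, adjusted p = 3.1e-07). Nr0b1, which encodes DAX1, had 23.6 to 33 CPM in chr7 libraries and 35.6 to 42.1 CPM in chr3 libraries (-0.41 ± 0.06). Klf2 (0.23) and Zfp42 (0.16) were called higher, and Nanog (0.09 ± 0.036, adjusted p = 0.0762), Fgf4 and Dppa3 were not called. Nanog was called without chr7_D4 replicate 2 (adjusted p = 0.039) and without chr7_F4 replicate 1 (adjusted p = 0.0324). The list thus did not move as 1 block.

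Of 22 genes of the formative and primed states, 12 were called lower and 2 higher (median -0.2), against 12.9% lower and 11.7% higher of all genes tested. Lef1 had 1.55 to 3.05 CPM (median 2.23) in chr7 libraries and 4.21 to 5.78 CPM (median 5.03) in chr3 libraries (-1.16 ± 0.13, adjusted p = 1.52e-06). Otx2 had 1.69 to 2.66 CPM (median 2.13) in chr7 libraries and 3.13 to 4.49 CPM (median 4.22) in chr3 libraries (-0.93 ± 0.12, adjusted p = 1.08e-05). Neither gene overlapped between groups, and both were called in all 4 pairs. Krt18, a keratin of simple epithelia, was the member that rose in all 4 pairs (0.43 ± 0.056).

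Genes of the DNA methylation machinery, which copies and sets methyl marks on CG, were lower in chr7 clones. Uhrf1, which guides DNMT1 to replicating DNA, had 467 to 493 CPM (median 477) in chr7 libraries and 569 to 611 CPM (median 588) in chr3 libraries (-0.3 ± 0.028, adjusted p = 1.24e-07). Dnmt3b had 77.1 to 85.6 CPM in chr7 libraries and 105 to 117 CPM in chr3 libraries (-0.4 ± 0.036, adjusted p = 4.6e-08). Dnmt3l had 218 to 248 CPM in chr7 libraries and 269 to 285 CPM in chr3 libraries (-0.27 ± 0.031). Dnmt1 had 383 to 403 CPM in chr7 libraries and 427 to 451 CPM in chr3 libraries (-0.16 ± 0.029). These 4 genes were called in all 4 pairs without overlap between groups, although Dnmt1 was not called on clone sums (adjusted p = 0.1). Of the 13 genes of the list, Tet1 and Tet2 (-0.28 and -0.22), demethylating enzymes, were also called lower, Mbd2 (0.28) was called higher and Dnmt3a (-0.02) was not called.

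The PRC2 subunits did not move together. Ezh2, the methyltransferase, had 187 to 226 CPM (median 207) in chr7 libraries and 239 to 251 CPM (median 242) in chr3 libraries (-0.24 ± 0.036, adjusted p = 4.56e-05). Eed, which reads the mark, had 176 to 190 CPM in chr7 libraries and 203 to 220 CPM in chr3 libraries (-0.21 ± 0.03). Suz12, the scaffold subunit, had 405 to 475 CPM in chr7 libraries and 378 to 417 CPM in chr3 libraries, a small rise (0.1 ± 0.032, adjusted p = 0.0259) that was not called on clone sums (adjusted p = 0.374). Suz12 averaged 453 ± 22 CPM in chr7_D4 and 409 ± 3 CPM in chr7_F4, against 403 ± 6.2 CPM in chr3_C2 and 401 ± 20 CPM in chr3_H7 (SD, n = 3 each), so chr7_D4 alone was high. It was not called without chr7_D4 replicate 1, chr7_F4 replicate 1, chr3_C2 replicate 3 or chr3_H7 replicate 2 (adjusted p = 0.053 to 0.088). Of 13 subunit genes tested, 4 were called higher and 3 lower (median -0.03), and of 24 PRC1 subunit genes 7 were higher and 3 lower (median 0.08). Of all genes tested, 11.7% were called higher and 12.9% lower.

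Metabolic and stress genes were split. Of 30 genes of hypoxia and glycolysis, 15 were called lower and 2 higher (median -0.11), against 12.9% and 11.7% of all genes tested. Ldha, which makes lactate, had 1860 to 2270 CPM (median 2030) in chr7 libraries and 2450 to 2660 CPM (median 2520) in chr3 libraries (-0.31 ± 0.03, adjusted p = 1.32e-07). Pdk1, a pyruvate dehydrogenase kinase gene, had 207 to 237 CPM in chr7 libraries and 263 to 274 CPM in chr3 libraries (-0.27 ± 0.032). Ddit4, an inhibitor of mTOR signalling, went the other way at 593 to 792 CPM in chr7 libraries and 512 to 602 CPM in chr3 libraries (0.3 ± 0.049), and Gapdh, Pgk1, Aldoa and Slc2a3 were not called.

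Hspa5, the chaperone BiP of the endoplasmic reticulum, had 695 to 882 CPM (median 804) in chr7 libraries and 514 to 559 CPM (median 535) in chr3 libraries (0.56 ± 0.046, adjusted p = 1.8e-08). Its groups were far apart. In the same list Slc7a5, an amino acid carrier (-0.24 ± 0.033), Shmt2, an enzyme of serine use (-0.22 ± 0.029), and Stc2, a stress-induced secreted protein (-0.39 ± 0.052), were called lower in all 4 pairs, while the carriers Slc3a2 (0) and Slc7a11 (-0.4) and the enzyme Mthfd2 (-0.05) were not called. Over the 26 genes of that list, 6 were called higher and 10 lower (median 0.02), against 11.7% and 12.9% of all genes tested. Ifitm1 and Ifitm3, membrane proteins that restrict viruses, had 63.5 to 80.7 and 68.3 to 82.2 CPM in chr7 libraries, against 93.8 to 107 and 92.9 to 110 CPM in chr3 libraries. Both fell without overlap (-0.44 ± 0.046 and -0.42 ± 0.035), while Stat2, a signal transducer of the interferon response, rose (0.24 ± 0.038). Of 18 interferon response genes 4 were called higher and 6 lower, against 11.7% and 12.9% of all genes tested.

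Among imprinted genes, the share called between clones of the same deletion was above that of all genes. Of 59 tested, 9 were called between chr7_F4 and chr7_D4 (15.3%, against 1.01% of all genes tested) and 6 between chr3_H7 and chr3_C2 (10.2%, against 0.991%). Grb10, an imprinted adaptor that restrains growth factor signalling, had 26.5, 28.2 and 23.2 CPM in chr7_D4 and 188, 186 and 178 CPM in chr7_F4, against 170 to 175 CPM in chr3_C2 and 179 to 184 CPM in chr3_H7. Only clone chr7_D4 was low, so the log2 change of the clone means, -1.35 ± 0.039 (adjusted p = 1.56e-16), was that of 1 clone and was not called on clone sums (adjusted p = 0.445). Between chr7_F4 and chr7_D4 the change was 2.83 (adjusted p = 1.27e-19).

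Other imprinted genes set single clones apart in the same way. Peg10, a retrotransposon-derived gene needed in the placenta, averaged 323 ± 9.1 CPM in chr7_F4 and 146 ± 4.4 CPM in chr7_D4, against 157 ± 6.9 CPM in chr3_C2 and 187 ± 3.5 CPM in chr3_H7 (SD, n = 3 each), and its neighbour Sgce was also high in chr7_F4 (0.94 against chr7_D4, adjusted p = 1.19e-05). Snrpn, of the Prader-Willi domain, averaged 156 ± 4.7 CPM in chr7_D4 and 85.7 ± 1.5 CPM in chr7_F4, against 85.3 ± 3.4 CPM in chr3_C2 and 87.6 ± 1.1 CPM in chr3_H7. Impact, a regulator of translation, averaged 149 ± 4.5 CPM in chr7_D4 and 140 ± 2.6 CPM in chr7_F4, against 152 ± 6.3 CPM in chr3_H7 and 87 ± 0.52 CPM in chr3_C2. Mcts2 (0.95, adjusted p = 4.84e-07) and Mest (0.67, adjusted p = 5.29e-07) were likewise higher in chr3_H7 than in chr3_C2. For Peg10, Snrpn and Impact 1 clone thus stood apart from the other 3.

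A smaller set of imprinted genes separated the deletions in all 4 pairs. Peg3, a paternally expressed zinc finger gene, had 285 to 318 CPM (median 304) in chr7 libraries and 178 to 211 CPM (median 199) in chr3 libraries (0.62 ± 0.035, adjusted p = 6.39e-11, and 0.000163 on clone sums). Plagl1, a paternally expressed zinc finger gene, had 18.2 to 23.2 CPM in chr7 libraries and 11.3 to 15.3 CPM in chr3 libraries (0.66 ± 0.072), and Zrsr1 had 14.3 to 17.3 CPM in chr7 libraries and 7.69 to 9.61 CPM in chr3 libraries. These 3 genes did not overlap between groups. Usp29 (0.47), which lies beside Peg3, rose as well. Zdbf2, a paternally expressed gene, had 33.4 to 57.7 CPM in chr7 libraries and 56.4 to 80.8 CPM in chr3 libraries (-0.61 ± 0.093), with overlap, and Sfmbt2 (-0.34) fell.

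**Figure D5:**
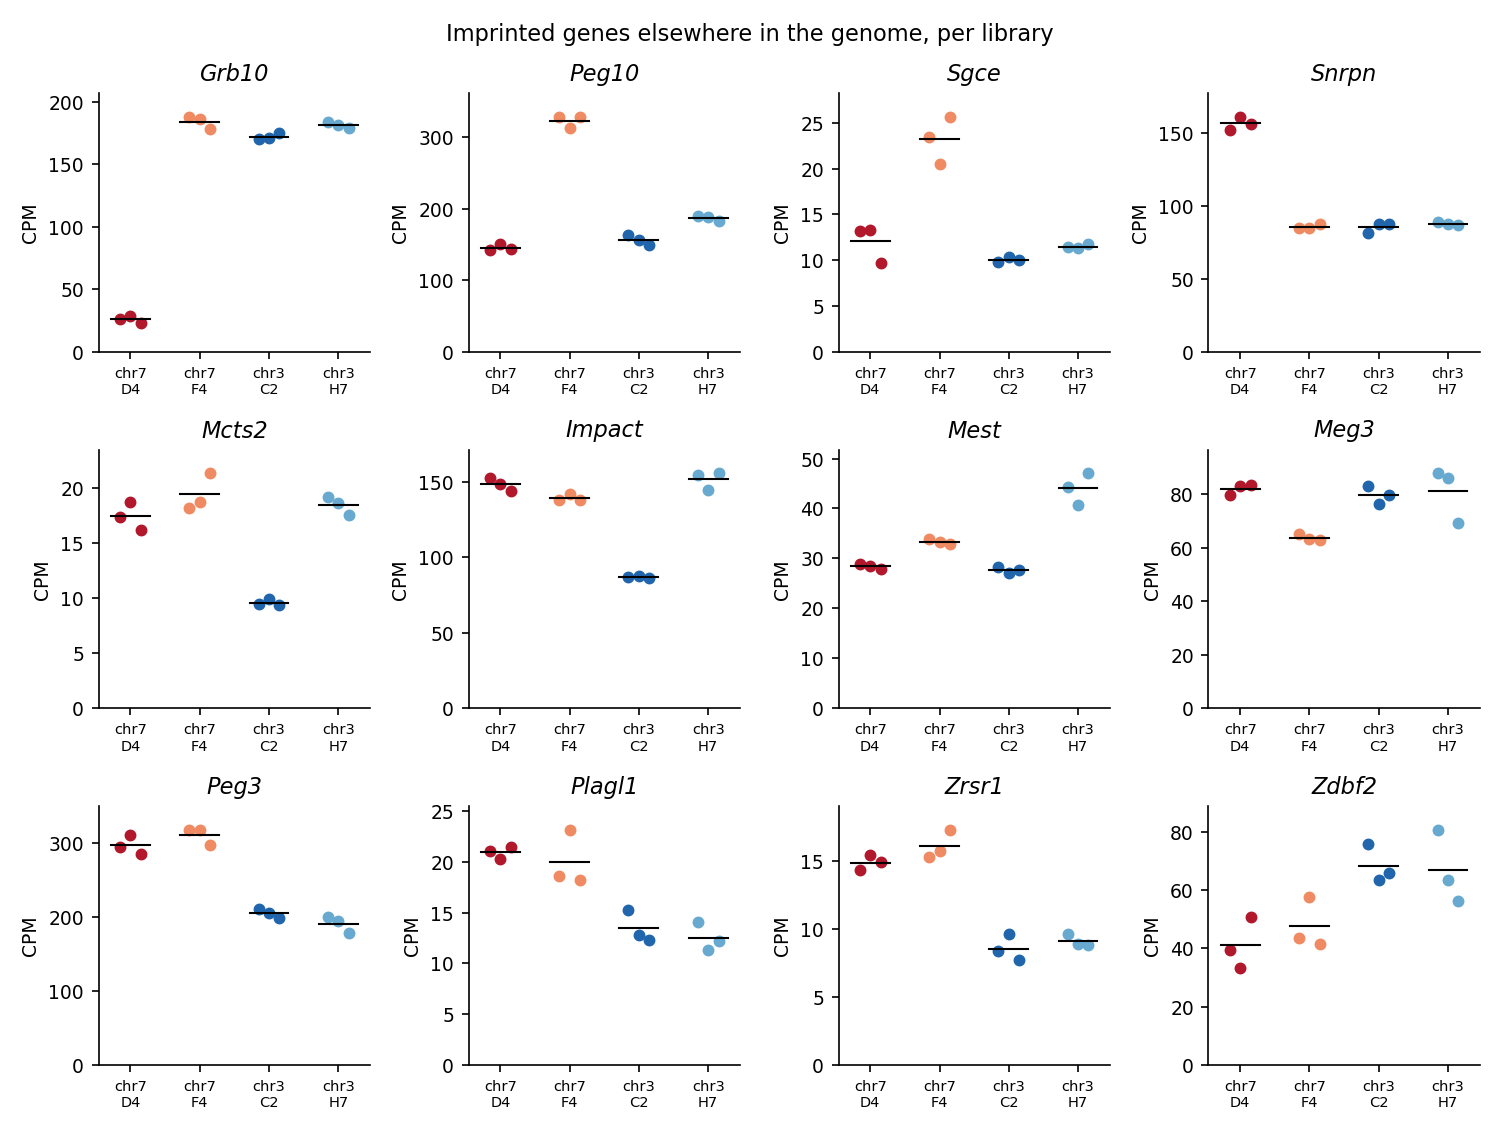
CPM per library (y axis, from 0) of 12 imprinted genes outside the Kcnq1 domain, by clone (x axis, 3 points each, line at the clone mean). Grb10, Peg10, Sgce and Snrpn set a single chr7 clone apart, Mcts2, Impact and Mest differ between the chr3 clones, and Peg3, Plagl1 and Zrsr1 are higher in both chr7 clones (Peg3 285 to 318 against 178 to 211).

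The chromosomes that carry the deletions had shares of called genes close to that of all genes. Chromosome 7 had 13 genes higher and 26 lower in all 4 pairs among 1345 tested (2.9%), and chromosome 3 had 11 higher and 21 lower among 737 (4.34%), against 3.33% of all genes. Postn and Lef1, both on chromosome 3, were called in all 4 pairs and changed by at least 2-fold on the clone means. Chromosome 18 had 7.99%, where the clustered protocadherins lie. Of the 26 clustered protocadherin genes tested, 22 were called lower, but the 22 members of the gamma cluster share exons and reads (pairwise r of at least 0.962 across libraries) and count as 1 measurement. Their log2 changes were -0.3 to -0.24. Medians per chromosome lay between -0.029 and 0.032 for all but the Y chromosome (-0.355, 9 genes). There clone chr3_H7 stood apart: Uty, a Y-linked gene, averaged 0.692 ± 0.079 CPM in chr7_D4 and 0.359 ± 0.11 CPM in chr7_F4, against 4.19 ± 0.45 CPM in chr3_H7 and 0.301 ± 0.033 CPM in chr3_C2 (SD, n = 3 each). The 8 Y-linked genes summed to 5.82 ± 1.2 CPM in chr7 libraries and 8.8 ± 5.64 CPM in chr3 libraries (SD, n = 6 each, exact permutation p = 0.203).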

How the data were processed

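RNA was measured by stranded, poly(A)-selected RNA-seq. Gene counts were deposited by the authors as raw counts per gene and library. The submitters' processing notes name Trim Galore 0.4.0, HISAT2 2.1.0, HTSeq 0.6.1 and the builds mm10 and GRCm38, but no tools for chr3_C2 replicate 1, and no source used here says if reads were counted by strand. Counters not assigned to genes were left out of library sizes (no feature 3.82% to 5.53%, ambiguous 1.03% to 1.07%, not unique 15.8% to 16.6%). Peak lists of PRC2 and H3K27me3 in E14 cells were deposited by the authors as pooled lists with a fold (ratio) over background per peak, and contacts as counts of paired-end tags per interaction, pooled for E14 cells and per library for B6NJ lines. These folds and tags are the authors' values.

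Libraries were grouped by clone from the titles. No replicate was a second copy of another (chi-square per gene 8.14 to 27.3 within clones). Genes were tested with edgeR 4.0.16 in R 4.3.3: TMM scaling, filterByExpr by clone, quasi-likelihood fit with 1 term per clone, Benjamini-Hochberg adjustment over 17764 genes, and a call at an adjusted p under 0.05. Adjusted p-values are from this test on the mean of the chr7 clones minus the mean of the chr3 clones unless another contrast or clone sums are named. Summed marker levels were compared with exact permutation tests. Alternatives used limma 3.58.1 and DESeq2 1.42.0. On simulated counts for 17764 genes with 100 genes changed at each size, the clone means recovered 91% at 1.5-fold and 99% at 2-fold, and all 4 pairs 70% and 87%. Clone sums recovered 92% and 99%. False calls numbered 7 on the clone means, 0 in all 4 pairs and 17 on clone sums. These numbers hold for the simulated counts alone and do not measure false calls from differences between clones. In the data, clones of the same deletion differed in 179 and 176 called genes. Positions, promoters and gene names came from RefSeq (GRCm38.p6), which gave 71.4% of the 51435 counted genes a position.

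The clones, gene lists and rules were chosen with earlier results of these data known. Genes were named by rule: called genes within 1 Mb of the interval or joined to it by E14 contacts, the 12 largest rises and 12 largest falls in all 4 pairs with a mean of at least 5 CPM (leaving out predicted genes and pseudogenes), up to 4 members per list in all 4 pairs with at least 1 CPM, a fixed set (Cdkn1c, Kcnq1, Phlda2, Pou5f1, Sox2, Nanog, Ezh2, Eed, Suz12, Xist, Col1a1, Ddx3y), and genes of chromosomes 7 and 3 at 2-fold or more. All other genes, such as Gm47283, Hlf, Pdyn, Grb10, Snrpn, Peg10, Impact, Uty and the list members given without an error, were chosen after their values were seen. Xist did not pass the count filter. A few genes that meet the rule are not reported here.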

Additional observations from a re-analysis of the deposited data

Results flagged for a closer look

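Of 240 groups of 6 libraries checked, 8 had 1 library far from the other 5, where chance gives about 1 in 20 groups. In chr7 libraries, Lox had 4.81 CPM in chr7_F4 replicate 1, against 2.84 to 3.57 CPM in the other 5. In chr3 libraries, chr3_H7 replicate 1 stood apart for Ndrg1 (72.8 CPM, others 87.7 to 91.1), Otx2 (3.13 CPM, others 4.03 to 4.49) and Dnmt3b (117 CPM, others 105 to 109). Tdh had 249 CPM in chr3_C2 replicate 1, against 223 to 231 CPM in the others. Snrpn had 81.4 CPM in chr3_C2 replicate 1, against 86.7 to 88.9 CPM in the others. Mxi1 had 33.5 CPM in chr3_C2 replicate 2, against 31.1 to 32 CPM in the others. The summed mesoderm markers were at 0.7 CPM in chr3_H7 replicate 2, against 0.974 to 1.12 CPM in the others.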

How the results depend on the processing

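The 4382 genes called on clone means became 2653 at an adjusted p under 0.01 and 39 when tested against a 1.5-fold change (21 higher, 18 lower), 1738 for chr7_F4 against chr3_C2 alone and 1574 for chr7_F4 against chr3_H7 alone. Other scalings, filters, DESeq2 (4669), all 26 libraries and thinned counts gave 4223 to 4779, and leaving out 1 library gave 3666 to 4892. The 592 genes called in all 4 pairs became 259 at an adjusted p under 0.01, and 321 (without chr7_F4 replicate 1) to 711 (without chr7_D4 replicate 3) without 1 library. The 960 genes called on clone sums became 1812 without a filter and 2712 with limma-voom and an estimated correlation of 0.102 within clones. Without 1 library, the counts between sister clones were 47 to 650 for the chr7 clones and 62 to 239 for the chr3 clones. The numbers do not pair the libraries: deviations of same-numbered libraries had correlations of -0.48 to 0.16 (18 pairs). Differently numbered libraries had correlations of -0.41 to 0.41 (36 pairs), the highest for chr7_D4 replicate 3 with chr7_F4 replicate 2. Whether libraries are paired under other numbers was not tested. With the replicate block, 4220 genes were called on clone means, 538 in all 4 pairs, 138 between the chr7 clones and 161 between the chr3 clones. The cause of these differences was not tested.

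On the mean of log2(CPM + 1), the feeder list difference turned to 0.56 and that of the trophoblast markers was 0 (exact p = 0.864, against -2.35 CPM, p = 0.00216, on the sum). Without 1 library, summed differences in CPM were -423 to -287 for the feeder list, 15.4 to 17.2 for the defining feeder markers, -652 to -460 for ES markers, -2.6 to -2.09 for trophoblast, 0.865 to 1.48 for primitive endoderm (1.48 without chr7_D4 replicate 3, exact p = 0.0303), -0.103 to -0.000133 for mesoderm, -4.03 to -1.74 for Y-linked genes, and -0.102 to 0.149 for neuroectoderm, which reversed without chr7_F4 replicate 2 (-0.102) and without chr3_C2 replicate 2 (-0.033). Without chr3_C2 replicate 1, an alternative chosen after seeing the data, list medians moved beyond their spread for mesoderm (0.26), DNA methylation (-0.12), Wnt (-0.04) and interferon genes (-0.16), as on clone sums for neuroectoderm (0.12), Wnt (-0.05) and interferon genes (-0.1). Of 2343 values of the 112 named genes, 2283 kept their direction and side of the threshold. Sez6l2 (-0.03 to 0.21 without 1 library) and Asphd1 (-0.01 to 0.3), which were not called, turned. Genes near 1 CPM or below are limited by depth.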

Other observations

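Several gene groups were not described above, and they are set here against 11.7% of all genes called higher and 12.9% called lower. Of 10 cell cycle inhibitors, a list that holds Cdkn1c, 4 were called higher and the others not called (median log2 change 0.21). Of 5 genes of the Dlk1-Meg3 domain, Rian (-0.31), Mirg (-0.4) and Meg3 (-0.15), its maternally expressed noncoding RNAs, were called lower and the others not called. Meg3 was not called on clone sums (adjusted p = 0.374), nor without chr7_D4 replicate 1, chr3_C2 replicate 1, chr3_H7 replicate 1 or chr3_H7 replicate 2 (adjusted p = 0.0518 to 0.0678). Of 3 genes of the X-linked Xlr family, Xlr3a (0.75) was called higher. Cholesterol synthesis genes had 7 of 24 called higher and 4 lower (median 0.04), p53 targets 3 of 22 higher and 2 lower, and glutathione genes 5 of 26 higher and 5 lower. Genes of the MEK and ERK pathway had 3 of 20 called higher and 6 lower (median 0), and genes of the Wnt pathway 2 of 17 higher and 5 lower (median 0.03), although both pathways are acted on by the inhibitors in the medium of all 4 clones.

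Markers of other early lineages were low in all libraries. The summed primitive endoderm markers were 8.7 to 11.8 CPM in chr7 libraries and 8.4 to 10.9 CPM in chr3 libraries (exact permutation p = 0.106), and the mesoderm markers 0.687 to 1.17 CPM in chr7 libraries and 0.7 to 1.12 CPM in chr3 libraries (exact permutation p = 0.615). The trophoblast markers were 6.7 to 8.53 CPM in chr7 libraries and 9.17 to 11.3 CPM in chr3 libraries (exact permutation p = 0.00216 over libraries, and 0.333 over clones, the smallest that 2 against 2 allow). Nearly all of this sum was Eomes, with 6.25 to 8.26 CPM in chr7 libraries and 8.96 to 11.2 CPM in chr3 libraries, while Cdx2 and Elf5 were at or near 0.

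For the 592 genes called in all 4 pairs, levels in the other lines of the series were set beside both groups. The parental line was nearer the chr3 clones for 75% of them (60.2% of all genes), with 61.7% of the genes higher in chr7 clones and 81.6% of the genes lower, and the chr2 deletion clones were nearer the chr7 clones for 67.2% (53.7% of all genes). The chr9 deletion clones were nearer the chr3 clones for 58.4% (53.5% of all genes), but this held for 63.6% of the lower genes and 48% of the higher ones. Depth differed between these lines, and its part was not tested.

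Within the chr3 deletion, Lars2 (-1.16, adjusted p = 0.0042), Gm15564 (-1.12, adjusted p = 0.00518) and Mir6236 (-1.7, adjusted p = 8.3e-05) were lower in chr3_H7 than in chr3_C2 (log2, called by edgeR's quasi-likelihood test). Their levels per library are not given here. Replicate 2 of chr3_C2 lay apart from replicates 1 and 3 (chi-square per gene 24.5 and 27.3, against 8.14 between those 2). Whether the 3 differences rest on that library was not tested.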
